A study of Mus musculus with 8 samples.

Results

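The 34 genes described here are known for their expression in retinal ganglion cells, and they were followed in retinas of *dmbo* and WT mice at postnatal day 15 (P15). They were chosen by symbol, as known genes of the cell type and not by a threshold on the values. All 34 symbols were present among the 21652 symbols of the array, on 35 of its 28350 probe sets, since *Irx3* had a second probe set. Where a gene is given a value, it is that of the probe set with the highest mean over the 8 arrays.

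The *dmbo* mice carried, on both alleles, a premature stop codon in exon 1 of *Hmx1*, a homeobox transcription factor of the developing eye and ear. They had been backcrossed further to C57BL/6J, which also served to remove an *Rd1* mutation that they carried. The WT mice were C57BL/6J from another supplier, and littermate controls are not described, so the source of the mice and the genotype are confounded. There were 4 arrays of each genotype, each from the RNA of 1 whole retina and, by the study's account, of a different animal. RNA was amplified and hybridized to Affymetrix Mouse Gene 1.0 ST arrays, which read each gene with probes spread along its exons, and values are log2 signals normalized by RMA (robust multi-array average). A difference of 1 on this scale is a doubling. All differences are *dmbo* minus WT.

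Ganglion cells are the output neurons of the retina. They are the first retinal neurons to be born, they receive input from bipolar and amacrine cells, and their axons form the optic nerve. The bHLH factor Atoh7 makes progenitors competent for this fate, and POU and LIM homeodomain factors then direct differentiation and axon growth. Ganglion cells are a small minority of the cells of a whole retina, and several of these genes are also used by amacrine, horizontal or other neurons. In whole tissue, fewer cells of a type and less RNA per cell cannot be told apart.

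Array medians over all probe sets ranged from 8.19 to 8.28 and pairs of arrays correlated at 0.989 to 0.997. The small number of arrays sets the limit of precision. The *Hmx1* probe set itself gave 8.13 to 8.42 in *dmbo* and 8.21 to 8.32 in WT retinas, and a nonsense mutation need not change this signal, so it was no check of the labels. Lens transcripts stood apart. Crystallins, averaged over 16 genes, gave signals of 11.51, 10.27, 8.48 and 12.52 on the *dmbo* arrays, by replicate number, against 7.60, 7.61, 7.89 and 9.09 on the WT arrays. Sex-linked transcripts also differed between arrays and between genotypes. *Xist* gave 10.58 to 12.87 on all 4 *dmbo* arrays, against 12.80 on WT replicate 2 and 6.44 to 6.65 on the other 3 WT arrays, which carried Y-linked transcripts. Sex and genotype are thus partly confounded. *dmbo* replicates 1 and 2 carried both *Xist* (10.58 and 12.73) and Y-linked transcripts (mean of *Ddx3y*, *Eif2s3y* and *Uty*, 10.13 and 8.18), and whether each of these arrays holds RNA of 1 animal was not tested. Results are therefore also given without *dmbo* replicate 4, the array of highest crystallin signal, and with the crystallin mean as a covariate.

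None of the 34 ganglion cell genes passed the test between *dmbo* and WT retinas. The test was limma across all probe sets. It asked for an adjusted p under 0.1 together with a minimum change of 1.2-fold, and called 0.638% of the 28350 probe sets and 0.633% of the 21652 symbols. The lowest adjusted p of a ganglion cell gene in limma was 0.405, for *Elavl3*. Without the adjustment, 3 of 34 had a p under 0.05 (*Elavl3*, *Atoh7* and *Mmp17*), which is 8.82% against 7.75% of all symbols. Values of the *dmbo* and WT arrays did not overlap for 3 of 34 (*Pou4f2*, *Atoh7* and *Mmp17*), which is 8.82% against 5.83% of all symbols. Both shares were near those of all symbols.

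Log2 fold changes of the 34 genes ran from -0.17 to 0.18, with 21 above and 13 below 0. Their median was 0.0093, against 0.0049 over all symbols, and 17 lay on each side of 0 after the arrays were centred on a common median. The median size of the change, without its sign, was 0.049, against 0.045 over all symbols.

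**Figure D1:**
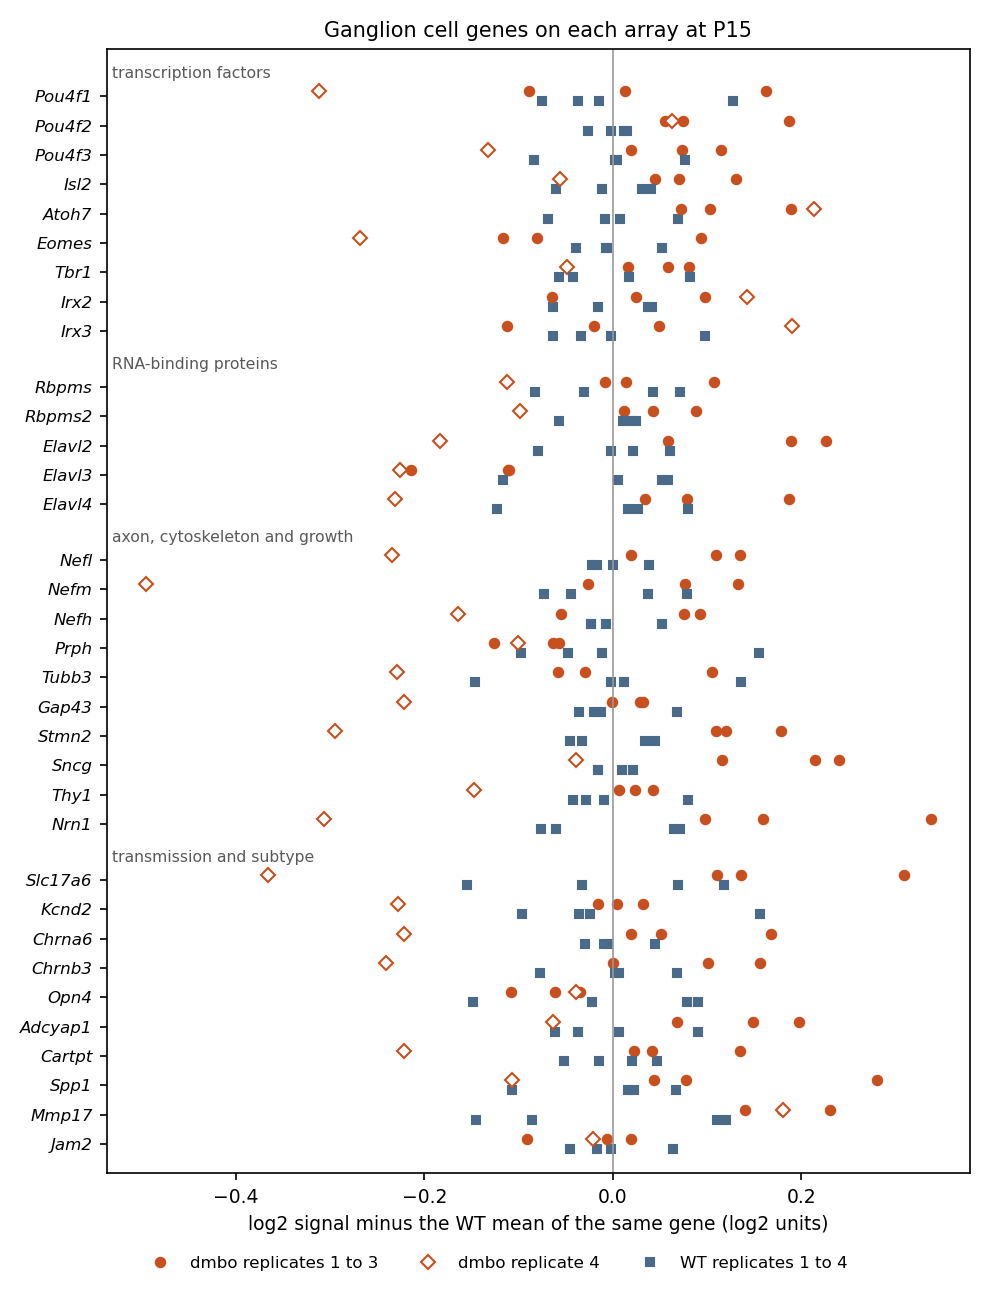
Log2 signal of each ganglion cell gene on each array, as the difference from the WT mean of that gene (horizontal axis, log2 units), with genes grouped by role. Filled circles are *dmbo* replicates 1 to 3, open diamonds are *dmbo* replicate 4, and squares are WT replicates 1 to 4. The diamond is the lowest of the 8 values for 24 of the 34 genes.

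Among the 9 transcription factors, *Atoh7* and *Pou4f2* were higher on every *dmbo* array than on any WT array, and neither passed. *Atoh7*, the factor that opens the ganglion cell fate, gave 9.55, 9.47, 9.44 and 9.58 in *dmbo* retinas and 9.36, 9.43, 9.29 and 9.37 in WT retinas. The lowest *dmbo* value lay just above the highest WT value. The difference was 0.14 (SE 0.05, 95% interval 0.03 to 0.26), which is 1.11-fold, with an adjusted p of 0.447 in limma. *Atoh7* (probe set 10363639) lies on chromosome 10 from 62562904 to 62563353, as the array annotation gives it without naming a genome build.

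*Pou4f2* encodes Brn3b, a POU factor on which most ganglion cells depend for differentiation and survival. Its signal was 9.30, 9.41, 9.28 and 9.29 in *dmbo* retinas and 9.24, 9.20, 9.24 and 9.22 in WT retinas. *dmbo* replicate 2 was the highest, and the other 3 *dmbo* values lay just above the WT range. The difference was 0.09 (SE 0.04, 95% interval -0.0044 to 0.19), with an adjusted p of 0.684 in limma. Its probe set 10579825 lies on chromosome 8 from 80956908 to 80960551.

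*Pou4f1* encodes Brn3a, a related POU factor of ganglion cells and sensory neurons. It gave 8.03, 8.13, 8.28 and 7.81 in *dmbo* retinas and 8.10, 8.25, 8.04 and 8.08 in WT retinas. The *dmbo* group held both the highest and the lowest of the 8 values. The difference was -0.06 (SE 0.09, 95% interval -0.27 to 0.15), with an adjusted p of 0.982 in limma.

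The remaining transcription factors differed by -0.09 to 0.05 and their groups overlapped. *Eomes* (Tbr2), a T-box factor of intrinsically photosensitive ganglion cells, stood at -0.09, and its relative *Tbr1* at 0.03. *Pou4f3* (Brn3c) stood at 0.02 and *Isl2*, a LIM homeodomain factor of contralaterally projecting ganglion cells, at 0.05. The Iroquois factors *Irx2* and *Irx3* stood at 0.05 and 0.03, and the second *Irx3* probe set at -0.04. The brighter *Irx3* probe set is annotated on the plus strand, whereas the RefSeq start site of *Irx3* lies on the minus strand. Whether that probe set reads the *Irx3* message was not tested. Adjusted p in limma was 0.899 or higher for each of these 6 genes.

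The promoters were searched because HMX1 is reported to bind CAAGTG, with CAAG as its core. RefSeq windows of 250 bases before to 50 after a start site, on GRCm38.p6, were matched for 21 of the 34 genes, with 32 windows. CAAGTG, read on both strands, was found in 0 of these 32 windows, against 13.6% of all 32851 windows. Some genes, such as *Elavl2* and *Elavl4*, had several windows that overlapped, so the windows are not independent. The study's own search reached farther past the start site, and sites there were not searched here. The core CAAG, which CAAGTG contains, was found in 90.6% of the 32 windows and in 90.6% of all. The 250 bases before the start site are shown for the genes above whose groups did not overlap and for *Elavl3*, which had the lowest p. Capitals mark CAAG or its reverse complement CTTG. *Mmp17* is named only. *Pou4f2* is read from the minus strand at chr8:78436648-78436897, *Atoh7* from the plus strand at chr10:63099535-63099784 and *Elavl3* from the minus strand at chr9:22052024-22052273.
Pou4f2: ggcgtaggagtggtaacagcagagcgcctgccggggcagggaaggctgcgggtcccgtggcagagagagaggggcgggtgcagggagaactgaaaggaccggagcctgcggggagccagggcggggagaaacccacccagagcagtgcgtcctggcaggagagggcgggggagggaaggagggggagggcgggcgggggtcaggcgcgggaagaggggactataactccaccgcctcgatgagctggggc
Atoh7: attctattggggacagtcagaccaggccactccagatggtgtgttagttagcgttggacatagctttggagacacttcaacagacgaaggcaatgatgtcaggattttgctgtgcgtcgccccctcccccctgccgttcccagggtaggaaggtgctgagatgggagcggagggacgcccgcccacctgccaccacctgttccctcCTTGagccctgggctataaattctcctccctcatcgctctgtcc
Elavl3: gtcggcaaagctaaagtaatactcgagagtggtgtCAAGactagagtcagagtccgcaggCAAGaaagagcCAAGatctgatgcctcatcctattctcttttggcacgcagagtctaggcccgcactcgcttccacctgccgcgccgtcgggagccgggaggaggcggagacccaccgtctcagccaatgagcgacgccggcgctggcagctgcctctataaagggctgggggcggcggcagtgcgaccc
The *Pou4f2* stretch held 0 copies of the core, the *Atoh7* stretch 1 and the *Elavl3* stretch 3. A match is a description of these letters and shows no binding.

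Of the 5 RNA-binding proteins, *Elavl3* was lower in *dmbo* retinas without passing, and the others differed by 0.07 or less. *Elavl3* (HuC) is a neuronal protein that binds AU-rich messages in ganglion and amacrine cells. It gave 10.08, 10.19, 10.19 and 10.07 in *dmbo* retinas and 10.35, 10.36, 10.30 and 10.18 in WT retinas. WT replicate 4 lay within the *dmbo* range and the other WT values lay above it. The difference was -0.17 (SE 0.05, 95% interval -0.29 to -0.04), which is 0.892-fold, with an adjusted p of 0.405 in limma. Its probe set 10591706 lies on chromosome 9 from 21822216 to 21856454.

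*Rbpms* marks ganglion cells of all types in the mouse retina. Its signal was 9.80, 9.78, 9.89 and 9.67 in *dmbo* retinas and 9.83, 9.86, 9.76 and 9.70 in WT retinas. The means were 9.79 ± 0.09 in *dmbo* and 9.79 ± 0.07 in WT retinas (SD, n = 4 each), and the groups overlapped throughout. The 95% interval of the difference was -0.13 to 0.13. *Rbpms2* differed by 0.01, and the HuC relatives *Elavl2* (HuB) and *Elavl4* (HuD) by 0.07 and 0.02.

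The 10 genes of axon, cytoskeleton and growth held no gene with an unadjusted p under 0.05. *Nefl*, the light neurofilament subunit that is abundant in ganglion cell axons, gave 12.09, 12.21, 12.18 and 11.84 in *dmbo* retinas and 12.06, 12.08, 12.05 and 12.11 in WT retinas. The WT arrays lay close together, inside the *dmbo* range. The difference was 0.0074 (SE 0.08, 95% interval -0.16 to 0.18). *Nefm* and *Nefh*, the medium and heavy subunits, differed by -0.08 and -0.01, and *Prph*, the intermediate filament peripherin, by -0.09.

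*Sncg* encodes gamma-synuclein, an abundant protein of ganglion cell bodies and axons. It gave 11.37, 11.49, 11.47 and 11.21 in *dmbo* retinas and 11.24, 11.24, 11.27 and 11.26 in WT retinas. Replicates 1 to 3 of *dmbo* lay above the WT range and *dmbo* replicate 4 below it. The difference was 0.13 (SE 0.06, 95% interval -0.0061 to 0.27), with an adjusted p of 0.684 in limma. *Sncg* lies on chromosome 14 from 35183460 to 35187846.

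*Stmn2*, a microtubule regulator of growing neurites, showed the same order. It gave 11.60, 11.61, 11.67 and 11.20 in *dmbo* retinas and 11.46, 11.45, 11.54 and 11.53 in WT retinas, a difference of 0.03 (SE 0.10) with an adjusted p of 0.994 in limma. *dmbo* replicate 4 again lay below every WT array and the other 3 *dmbo* arrays above every one.

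*Thy1*, a cell surface glycoprotein used to label and purify ganglion cells, gave 10.99, 11.00, 11.02 and 10.83 in *dmbo* retinas and 10.94, 10.95, 11.06 and 10.97 in WT retinas. The groups overlapped and the difference was -0.02 (SE 0.05, 95% interval -0.14 to 0.10). *Gap43*, a growth cone protein, differed by -0.04, *Tubb3*, the neuronal beta-tubulin, by -0.05 and *Nrn1*, the neurite growth factor neuritin, by 0.07.

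Among the 10 genes of transmission and ganglion cell subtypes, *Mmp17* was higher on every *dmbo* array and did not pass. *Mmp17*, a membrane-anchored matrix metalloproteinase, gave 8.63, 8.54, 8.58 and 8.58 in *dmbo* retinas and 8.51, 8.52, 8.25 and 8.31 in WT retinas. The WT arrays fell into a pair just below the *dmbo* range and a pair well below it. The difference was 0.18 (SE 0.07, 95% interval 0.03 to 0.33), which is 1.13-fold, with an adjusted p of 0.492 in limma. Its probe set 10526038 lies on chromosome 5 from 130090089 to 130114088.

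*Slc17a6* encodes VGLUT2, the vesicular transporter that loads glutamate at ganglion cell terminals. It gave 10.08, 10.11, 10.28 and 9.61 in *dmbo* retinas and 9.82, 10.04, 9.94 and 10.09 in WT retinas. *dmbo* replicate 3 was the highest and replicate 4 the lowest of the 8 values. The difference was 0.05 (SE 0.13, 95% interval -0.24 to 0.34), the widest interval of the 34 genes.

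*Opn4* encodes melanopsin, the photopigment of intrinsically photosensitive ganglion cells. It gave 8.42, 8.45, 8.38 and 8.45 in *dmbo* retinas and 8.34, 8.58, 8.46 and 8.57 in WT retinas. The *dmbo* values lay inside the WT range, and the difference was -0.06 (SE 0.06, 95% interval -0.19 to 0.07).

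*Jam2* encodes the junctional adhesion molecule JAM-B, a marker of a direction-selective ganglion cell type. It gave 11.65, 11.76, 11.74 and 11.72 in *dmbo* retinas and 11.73, 11.74, 11.81 and 11.70 in WT retinas. The groups overlapped and the difference was -0.02 (SE 0.04).

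The remaining genes of this role differed by -0.05 to 0.09. The nicotinic receptor subunits *Chrna6* and *Chrnb3*, which assemble together in ganglion cells, differed by 0.0042 and 0.0044. *Kcnd2*, an A-type potassium channel subunit, differed by -0.05. The peptide genes *Adcyap1* (PACAP, a transmitter of melanopsin cells) and *Cartpt* (a marker of direction-selective cells) differed by 0.09 and -0.0055, and *Spp1* (osteopontin, a marker of alpha ganglion cells) by 0.07. Adjusted p in limma was 0.882 or higher for each of these 6 genes.

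The 95% interval of the difference lay within 1.2-fold in either direction for 27 of the 34 genes, which is 79.4% against 80% of all symbols. For *Rbpms*, *Thy1*, *Nefl*, *Stmn2*, *Pou4f2* and *Opn4* a change of that size in array signal was thus outside the interval. How closely the signal follows the amount of RNA, above all for genes of lower signal, was not tested. The other 7 were *Pou4f1*, *Elavl3*, *Nefm*, *Sncg*, *Nrn1*, *Slc17a6* and *Mmp17*, whose intervals reached 1.2-fold in 1 direction or both, so that a change of that size lay within them. The interval of *Nefm* reached 0.784-fold and that of *Slc17a6* 1.26-fold. With the crystallin mean as a covariate the intervals were wider, and 12 of 34 lay within 1.2-fold, which is 35.3% against 45.1% of all symbols. *Pou4f2* and *Thy1* were then still within it, whereas *Rbpms*, *Nefl*, *Stmn2* and *Opn4* were not. Without *dmbo* replicates 1 and 2 the number was 13, which is 38.2% against 55.4% of all symbols.

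On *dmbo* replicate 4, most ganglion cell genes gave a lower signal than on the other 3 *dmbo* arrays. It was the lowest of all 8 arrays for 24 of 34 genes, 70.6% against 20.7% of all symbols, and it lay below the mean of the other *dmbo* arrays for 29 of 34, 85.3% against 41.1%. The median gap to that mean was -0.22 over the 34 genes and 0.04 over all symbols. Gaps were widest for *Nefm* (-0.56), *Slc17a6* (-0.55), *Nrn1* (-0.50) and *Stmn2* (-0.43). *Atoh7*, *Irx2*, *Irx3*, *Opn4* and *Jam2* lay above that mean instead, by 0.0050 to 0.22.

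The low signal on this array was shared by some other lists of neuronal genes and came with the highest lens signal. Rod markers lay below the mean of the other *dmbo* arrays for 8 of 8 genes, with a median gap of -0.09, and 7 of 8 were lowest on this array. Further axonal cytoskeleton genes lay below it for 14 of 15 (median -0.15), ganglion cell channels and receptors for 15 of 18 (median -0.10) and displaced amacrine cell markers for 10 of 12 (median -0.09). Further ganglion cell transcription factors lay below it for 12 of 25 (median 0.03), or 48%, and adhesion and guidance receptors for 9 of 15 (median -0.08), or 60%. These 2 lists were lowest on this array for 24% and 26.7% of their genes, near the 20.7% of all symbols. Lens crystallins lay above it for all 16 genes, with a median gap of 2.42. Their part in the lower signal of ganglion cell genes was not tested.

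**Figure D2:**
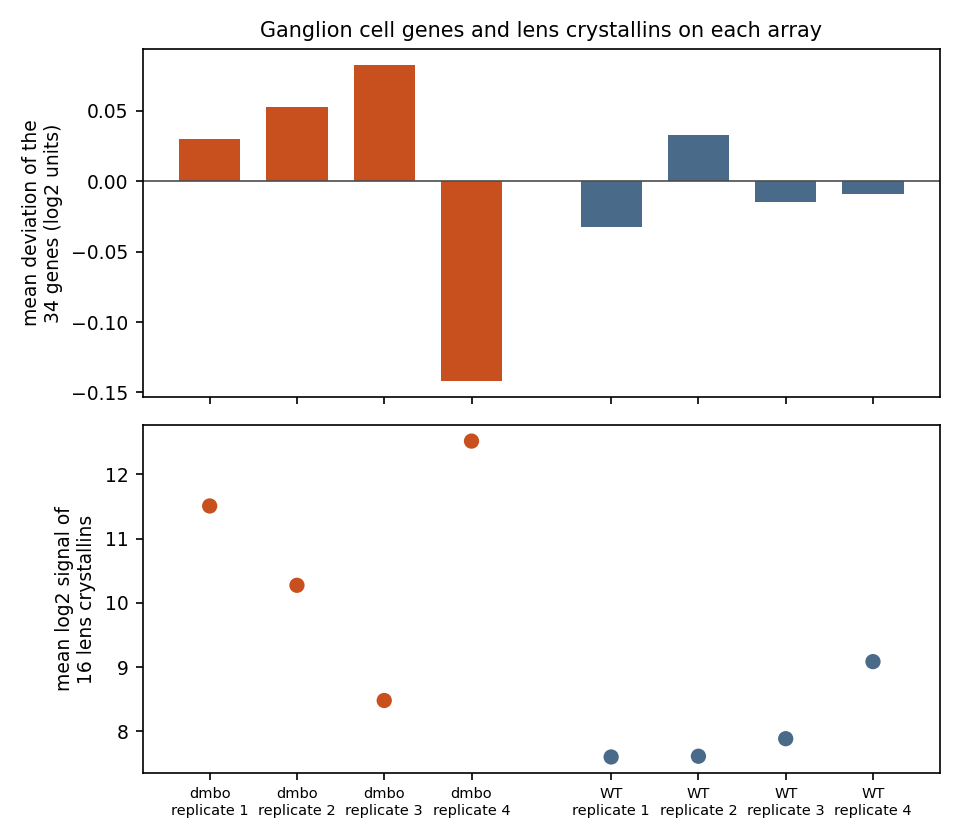
Deviation of the ganglion cell genes from their own mean over the 8 arrays, by array (vertical axis, log2 units), beside the mean signal of the 16 lens crystallins on the same arrays. The mean deviation was 0.03, 0.05, 0.08 and -0.14 on the *dmbo* arrays, by replicate number, against -0.03, 0.03, -0.01 and -0.0093 on the WT arrays.

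The spread between replicates was smaller without this array, over all symbols as well. The median SD of the 34 genes was 0.12 in *dmbo* and 0.06 in WT retinas, and it was 0.06 in *dmbo* retinas without replicate 4. Over all symbols the median SD was 0.09 in *dmbo* and 0.07 in WT retinas, and 0.07 in *dmbo* retinas without replicate 4. The SD was larger in *dmbo* than in WT retinas for 29 of 34 genes, 85.3% against 62.6% of all symbols.

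Without *dmbo* replicate 4, ganglion cell genes leaned towards higher signal in *dmbo* retinas, and none passed. This array gave the lowest of the 8 values for 24 of the 34 genes, so leaving it out raises the *dmbo* mean of those genes. Log2 fold changes were above 0 for 28 and below 0 for 6, with a median of 0.06 against -0.0041 over all symbols. An unadjusted p under 0.05 with a higher signal in *dmbo* was found for 9 of 34, against 4.71% of all symbols, and with a lower signal for *Elavl3* alone of the 34. The 9 were *Sncg*, *Stmn2*, *Nrn1*, *Elavl2*, *Adcyap1*, *Mmp17*, *Atoh7*, *Slc17a6* and *Pou4f2*. *Sncg* differed by 0.19 (SE 0.04, adjusted p = 0.153 in limma), *Nrn1* by 0.20 (SE 0.07, adjusted p = 0.386 in limma) and *Stmn2* by 0.14 (SE 0.04, adjusted p = 0.331 in limma). These genes were read on the same 7 arrays, so their shared direction is not a set of independent observations.

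**Figure D3:**
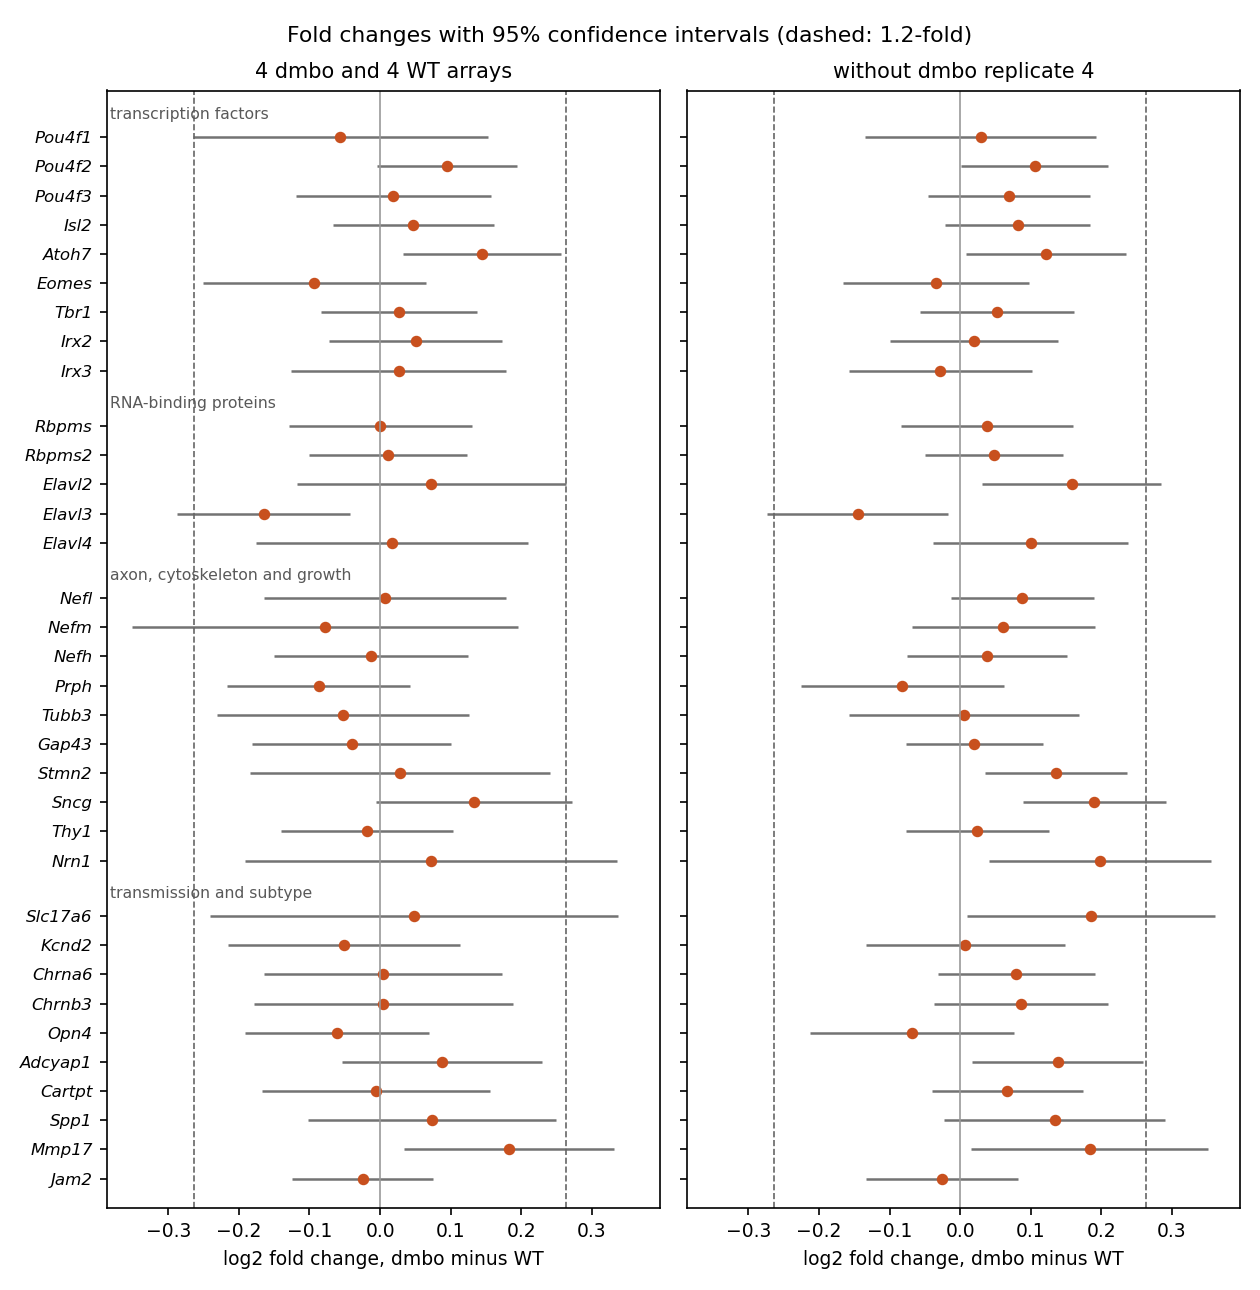
Log2 fold change of each ganglion cell gene, *dmbo* minus WT (horizontal axes, log2 units), with its 95% interval from limma, over all 8 arrays (left) and without *dmbo* replicate 4 (right). Dashed lines mark a change of 1.2-fold. On the left the intervals of *Atoh7*, *Elavl3* and *Mmp17* leave out 0, and on the right those of 10 genes do.

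Without *dmbo* replicates 1 and 4 the lean was also upwards, with 27 above and 7 below 0 and a median of 0.09. *dmbo* replicate 3 was the array on which the mean deviation of the ganglion cell genes was highest (0.08). Without it the lean was downwards, with 12 above and 22 below 0 and a median of -0.03. Without *dmbo* replicates 1 and 2, the arrays with transcripts of both sexes, the lean was downwards, with 11 above and 23 below 0 and a median of -0.03, and no ganglion cell gene had an unadjusted p under 0.05. With the crystallin mean as a covariate, 29 lay above and 5 below 0, the median was 0.12 against -0.03 over all symbols, and 8 of 34 genes had an unadjusted p under 0.05, all higher in *dmbo*. That is 23.5% of the ganglion cell genes and 23.5% of all symbols. *Atoh7* then differed by 0.06 and *Elavl3* by -0.05, whereas *Pou4f1* differed by 0.21 (SE 0.08, adjusted p = 0.172 in limma). The crystallin mean was higher in 3 of the 4 *dmbo* arrays than in any WT array, so that this covariate and the genotype are partly confounded.

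Further genes of ganglion cells held no gene that passed in any of 4 lists. These lists and those that follow were chosen with earlier results of these data known. Their shares beside those of all symbols are therefore a description and no test. Of 25 other ganglion cell transcription factors, 10 lay above and 15 below 0 (median -0.04), and 4 had an unadjusted p under 0.05. All 4 were lower on every *dmbo* array than on any WT array. That is 16% in each count, against 7.75% of all symbols with such a p and 3.24% that were lower on every *dmbo* array. *Sox11*, a SoxC factor of newborn ganglion cells, gave 7.40, 7.37, 7.54 and 7.41 in *dmbo* retinas and 7.65, 7.70, 7.64 and 7.68 in WT retinas. Its difference was -0.23 (SE 0.05) with an adjusted p of 0.0909 in limma, which met the p threshold while its 0.85-fold change was short of the fold minimum. The other 3, named after their values were seen, were *Onecut1* (-0.18), *Ebf3* (-0.23) and *Barhl2* (-0.16), with adjusted p of 0.213, 0.374 and 0.301 in limma. All values of *Sox11* lay below the array medians of 8.19 to 8.28, and whether it was detected was not tested. The arrays read whole retina, so which cells the differences of these genes come from was not tested.

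Of 15 other axonal cytoskeleton genes, 3 lay above and 12 below 0 (median -0.04), and 2 had an unadjusted p under 0.05, which is 13.3% against 7.75% of all symbols. *Dpysl3*, a collapsin response mediator of growth cones, was one of the 3. It gave 11.63, 11.63, 11.68 and 11.62 in *dmbo* retinas and 11.43, 11.41, 11.47 and 11.45 in WT retinas. The difference of 0.20 (SE 0.04) met the p threshold, with an adjusted p of 0.0770 in limma, and at 1.15-fold it was short of the fold minimum. The other gene with such an unadjusted p, named after its values were seen, was *Ina*, which went the other way. It stood at -0.30 (SE 0.11), which is 0.812-fold, with an adjusted p of 0.515 in limma, and its groups overlapped. *Ina* had 2 probe sets, and this is the brighter, which spans only 47099241 to 47099486 on chromosome 19. The other is not given here, so the change may not hold for the whole gene.

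Of 15 adhesion and guidance receptors of ganglion cell axons, 8 lay above and 7 below 0 (median 0.01), and 6 had an unadjusted p under 0.05, which is 40% against 7.75% of all symbols. Of these 6, named after their values were seen apart from *Nrcam*, *Nrcam* (0.18), *Chl1* (0.20) and *Epha6* (0.14) were higher and *Dcc* (-0.13), *Ephb1* (-0.13) and *Ephb2* (-0.16) lower in *dmbo* retinas. *Nrcam*, an L1-family adhesion molecule, gave 10.39, 10.44, 10.49 and 10.49 in *dmbo* retinas and 10.30, 10.30, 10.25 and 10.24 in WT retinas. The groups were apart by a difference of 0.18 (SE 0.04), with an adjusted p of 0.160 in limma. Of 18 channels and receptors, 5 lay above and 13 below 0 (median -0.02), and the lowest adjusted p in limma was 0.552, for the NMDA receptor subunit *Grin1* at -0.13.

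Displaced amacrine cells share the ganglion cell layer, and their markers gave no gene that passed. Of 12 markers, 3 lay above and 9 below 0 (median -0.07), 3 had an unadjusted p under 0.05, and the same 3 did not overlap between groups, which is 25% in each count against 7.75% and 5.83% of all symbols. *Tcfap2b* (AP-2 beta), a factor of amacrine and horizontal cells, gave 10.55, 10.73, 10.78 and 10.60 in *dmbo* retinas and 11.16, 11.09, 10.99 and 10.86 in WT retinas. Its difference was -0.36 (SE 0.08), with an adjusted p of 0.110 in limma. The other 2, named after their values were seen, went in opposite directions. *Sox2*, a factor of cholinergic amacrine cells and Müller glia, was 0.32 higher (SE 0.09, adjusted p = 0.239 in limma) and *Slc32a1*, the vesicular GABA transporter, stood at -0.16 (adjusted p = 0.557 in limma). The 8 rod markers differed by -0.08 to 0.11 (median -0.02).

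**Figure D4:**
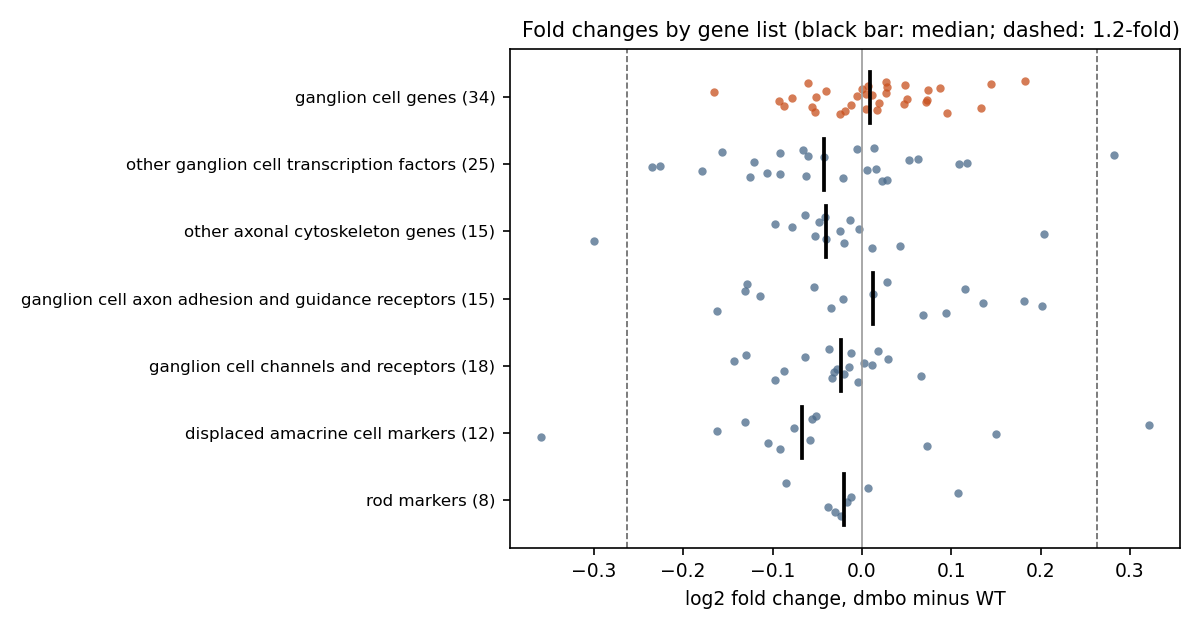
Log2 fold change, *dmbo* minus WT (horizontal axis, log2 units), of each gene in the ganglion cell genes and in 6 further lists, with the number of genes in brackets. Bars mark medians, which lie between -0.07 and 0.01, and dashed lines mark 1.2-fold.

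Chromosome 14 held 5 of the 34 genes (*Pou4f1*, *Nefl*, *Nefm*, *Sncg* and *Opn4*). Of its 805 symbols 21 passed, which is 2.61% against 0.633% of all symbols. None of the 5 ganglion cell genes was among them, and so few genes say little beside such a share.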

How the data were processed

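The arrays were Affymetrix Mouse Gene 1.0 ST, 4 from *dmbo* and 4 from WT retinas. The authors extracted signals with Affymetrix Power Tools, normalized them by RMA, and deposited log2 values in 2 tables that hold the same values, so that fold changes computed from either differed by 0. RMA equalizes the signal distributions of the arrays, so a change shared by most genes would not be seen. The deposited table also holds the authors' own comparison (log2 fold change, fold ratio, p-value, FDR and a B score), which was not used. The genome build of its positions was not given.

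From the log2 values, limma 3.58.1 in R 4.3.3 was fitted to all 28350 probe sets with moderated variances, *dmbo* minus WT, with Benjamini-Hochberg adjustment of the p-values over all of them. A call needed a minimum of 1.2-fold together with an adjusted p under 0.1, after the study's methods. All 35 probe sets of the ganglion cell genes carried the annotation's mark for unique probes. The mean signal was above the median of all probe sets for 26 of the 34 genes. That is no test of detection, and whether any of the 34 was detected was not tested. Signals of different probe sets were compared only with such medians and to choose genes, since they do not measure relative abundance. The fit was tested on simulated data with independent noise on each probe set and changes larger than those of the 34 genes. That does not cover small changes or deviations that genes share on an array.

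The ganglion cell genes and the lists were chosen with earlier results of these data known. Each gene is accounted for, and values by array are given for the 13 that had an unadjusted p under 0.05, did not overlap between groups, were the 3 brightest or the brightest of their role, or are defining markers. From other lists, called genes or the gene of lowest p were named, and genes named after their values were seen are marked so. Of these, *Ina*, *Onecut1* and *Ephb1* had 2 probe sets each, and only the brighter is given. Alternatives were median centring, cyclic loess, probe sets above the median signal alone, array weights, a prior with trend and robust fitting, a block for the replicate number, leaving out arrays, the mean of all probe sets of a symbol, no fold minimum, and the crystallin mean as a covariate. A covariate of Y-linked transcripts was added after the data were seen. Promoter sequences are from RefSeq.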

Additional observations from a re-analysis of the deposited data

Results flagged for a closer look

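In 4 of 68 groups of arrays (34 genes in 2 genotypes), 1 array lay far from the other 3 of its group, by Dixon's criterion, and chance alone sets apart about 1 in 20 groups. *Gap43* gave 8.95 on *dmbo* replicate 4, and 9.17 to 9.20 on the other *dmbo* arrays. *Stmn2* gave 11.20 on the same array, and 11.60 to 11.67 on the others. *Pou4f2* gave 9.41 on *dmbo* replicate 2, and 9.28 to 9.30 on the other *dmbo* arrays. *Rbpms2* gave 9.22 on WT replicate 4, and 9.28 to 9.30 on the other WT arrays.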

How the results depend on the processing

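No ganglion cell gene passed under any alternative run. The number with an unadjusted p under 0.05 was 3 (7.75% of all symbols). It was 1 without *dmbo* replicate 1 (5.91%) or WT replicate 3 (6.62%), 2 without WT replicate 4 (8.78%), 5 without *dmbo* replicate 3 (10.6%) and 10 without *dmbo* replicate 4 (9.41%). It was 5 with cyclic loess (9.97%) or a trended and robust prior (8.30%), 6 with array weights (12.9%) or without *dmbo* replicates 1 and 4 (9.02%), and 0 without *dmbo* replicates 1 and 2 (4.67%), where brackets give the share of all symbols. Probe sets called over the whole array numbered 181, and 63 to 831 under the alternatives. The median log2 fold change of 0.0093 moved to 0.12 with the crystallin covariate, and ran from -0.03 to 0.06 when single arrays were left out. Of the 13 genes given by array, 7 turned direction under at least 1 alternative. Values of the other sign were *Rbpms* -0.0097 and *Nefl* -0.0028 after median centring, *Rbpms* -0.0093 and *Thy1* 0.0064 with array weights, and *Rbpms* -0.017 with the Y-linked covariate. Without *dmbo* replicates 1 and 2 they were *Rbpms* -0.0020, *Nefl* -0.062, *Stmn2* -0.058 and *Slc17a6* -0.028. Without *dmbo* replicates 1 and 4 they were *Pou4f1* 0.088, *Thy1* 0.033 and *Jam2* 0.0067, and with the crystallin covariate *Pou4f1* 0.21, *Thy1* 0.072 and *Jam2* 0.015. With single arrays left out, *Rbpms* ran from -0.035 to 0.038, *Nefl* from -0.035 to 0.088, *Stmn2* from -0.022 to 0.14, *Slc17a6* from -0.039 to 0.19, *Pou4f1* from -0.13 to 0.029 and *Thy1* from -0.039 to 0.024. The cause of these turns was not tested. *Atoh7*, *Elavl3*, *Mmp17*, *Pou4f2*, *Sncg* and *Opn4* kept their direction under each alternative that gave them a value.

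The labels do not say whether replicate numbers pair the samples. Deviations of same-numbered *dmbo* and WT arrays correlated at -0.03, -0.02 and 0.03 for replicates 1 to 3 and at 0.43 for replicate 4. Replicate 4 had the highest crystallin mean of its genotype in both groups (12.52 in *dmbo* and 9.09 in WT retinas). The cause of that correlation was not tested. With the replicate number as a block, 0 ganglion cell genes passed, the median stayed at 0.0093, and 144 probe sets were called.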

Other observations

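Genes of neurotrophin signalling and axon injury, which respond when ganglion cell axons are damaged, gave no gene that passed. Of 16, 9 lay above and 7 below 0 (median 0.03), and 1 had an unadjusted p under 0.05 in limma, which is 6.25% against 7.75% of all symbols. *Atf3*, a stress-induced transcription factor of injured neurons, gave 8.14, 8.21, 8.30 and 8.11 in *dmbo* retinas and 7.93, 8.003, 8.10 and 7.86 in WT retinas. Its difference was 0.22 (SE 0.06) with an adjusted p of 0.323 in limma.

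Markers of glia of the optic nerve, through which ganglion cell axons leave the eye, also gave no gene that passed. Of 9, 7 lay above and 2 below 0 (median 0.11), and 3 had an unadjusted p under 0.05 in limma, which is 33.3% against 7.75% of all symbols. The mean signal of the list was 8.14, 8.12, 8.02 and 8.49 on the *dmbo* arrays, by replicate number, and 8.025 to 8.16 on the WT arrays. It was thus highest on *dmbo* replicate 4. *S100b*, a calcium-binding protein of astrocytes, gave 8.28, 8.21, 8.30 and 8.16 in *dmbo* retinas and 7.88, 8.12, 8.06 and 8.11 in WT retinas, a difference of 0.20 (SE 0.06) with an adjusted p of 0.373 in limma. Lens fibre markers were above 0 for 8 of 8 genes (median 1.02) and the 16 crystallins for 16 of 16 (median 2.80), with no call in either list. An unadjusted p under 0.05 in limma was found for 16 crystallins (100%) and 2 lens fibre markers (25%), against 7.75% of all symbols. The 8 pigment epithelium markers lay above 0 for 4 and below for 4 (median -0.03).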
